A study of Mus musculus with 5 samples.

Results

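Grin1 and Sncb are neuronal genes, and they were followed here through 2 windows of the genome in which brain peaks of RNA polymerase II stood out. The windows run over chromosome 2 from 25130000 to 25185000, which holds Grin1 and the flank past its 3′ end, and over chromosome 13 from 54845000 to 54885000, which holds Sncb. They were set on the mouse build mm9; the sources used here do not name the build of the deposited reads. Both windows were chosen by their read counts, because they hold regions with many brain reads and few elsewhere, so every value that sets brain above the other tissues describes that choice and was not tested. Merging the peaks of all tissues, each extended by 250 bp to both sides, gave 186413 regions in the genome, of which 36 lay in the Grin1 window and 9 in the Sncb window.

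Polymerase occupancy was measured by chromatin immunoprecipitation with sequencing in brain, kidney, liver, lung and spleen dissected from adult mice of the FVB strain, all untreated as far as the labels say. Each tissue had 1 library, so there was no replicate and no test between tissues, and intervals cover counting error only. The antibody was directed against RNA polymerase II, and no input library was used here. The labels give neither the number of animals nor the part of the brain. Depth was 10292262 aligned reads in the brain library, against 13786536 for kidney, 14964934 for liver, 13283124 for spleen and 10846976 for lung. Tissue identity was not checked with other marker genes, because no annotation in the coordinates of the reads was used here. A tissue is a mixture of cells, and a smaller share of cells with polymerase on a gene cannot be told apart from less polymerase per cell.

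Grin1 encodes GluN1, the subunit that every NMDA receptor needs; these receptors are glutamate-gated cation channels at excitatory synapses, opened only when a co-agonist, glycine or D-serine, is also bound to GluN1. Sncb encodes beta-synuclein, a small protein of presynaptic terminals and a relative of alpha-synuclein. RNA polymerase II is known to accumulate just after the start of many genes, to spread along the body of transcribed genes, and to run on past the polyadenylation site before it is released.

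In RefSeq on assembly GRCm38 both genes lie on the minus strand, so their starts are at the high-coordinate end and their ends at the low-coordinate end. In order of their first coordinate, the genes around Grin1 are Anapc2, a subunit of the anaphase-promoting complex, Tmem210, Lrrc26, an auxiliary subunit of BK potassium channels, then Grin1, the plus-strand noncoding RNA Grin1os, and the noncoding RNA AA543186. Around Sncb the order is Gprin1, then Sncb, the noncoding RNA Gm16249 and Eif4e1b, an eIF4E-related cap-binding protein. The sequences from 250 bases before to 50 bases after the annotated start of Grin1, of Sncb and of the plus-strand genes Lrrc26 and Grin1os are shown because the places with most brain reads are compared with gene starts below. They come from RefSeq on GRCm38.p6, read 5′ to 3′ on the strand of the gene, at chr2:25319138-25319437 for Grin1, chr13:54766546-54766845 for Sncb, chr2:25289661-25289960 for Lrrc26 and chr2:25291008-25291307 for Grin1os. These coordinates are not those of the reads. Capitals mark GGGCGG, the GC box, on either strand.
Grin1: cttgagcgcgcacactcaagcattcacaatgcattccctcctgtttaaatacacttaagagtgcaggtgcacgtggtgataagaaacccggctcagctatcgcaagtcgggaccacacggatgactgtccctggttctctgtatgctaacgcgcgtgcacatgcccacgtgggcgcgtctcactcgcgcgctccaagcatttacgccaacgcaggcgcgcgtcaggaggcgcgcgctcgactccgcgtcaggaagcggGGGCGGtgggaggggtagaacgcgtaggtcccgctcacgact
Sncb: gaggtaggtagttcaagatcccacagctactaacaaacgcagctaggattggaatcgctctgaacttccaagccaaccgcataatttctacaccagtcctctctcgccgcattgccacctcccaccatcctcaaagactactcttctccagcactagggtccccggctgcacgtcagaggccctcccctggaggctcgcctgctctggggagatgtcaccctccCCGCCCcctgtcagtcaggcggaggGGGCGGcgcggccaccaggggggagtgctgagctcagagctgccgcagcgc
Lrrc26: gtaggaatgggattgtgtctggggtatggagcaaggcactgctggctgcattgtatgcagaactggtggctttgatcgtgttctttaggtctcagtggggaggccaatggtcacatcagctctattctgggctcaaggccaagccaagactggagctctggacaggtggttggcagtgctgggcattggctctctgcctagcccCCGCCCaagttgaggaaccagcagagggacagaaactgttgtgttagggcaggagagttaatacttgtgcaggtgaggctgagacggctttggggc
Grin1os: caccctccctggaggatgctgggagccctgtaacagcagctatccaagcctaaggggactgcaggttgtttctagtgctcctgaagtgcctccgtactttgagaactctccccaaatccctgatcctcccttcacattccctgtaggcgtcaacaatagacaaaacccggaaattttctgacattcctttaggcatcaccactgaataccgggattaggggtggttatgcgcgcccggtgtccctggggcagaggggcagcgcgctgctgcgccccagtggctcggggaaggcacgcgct

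The Grin1 start is rich in CG dinucleotides. It holds 33 of them in 300 bases, more than 91.4% of the 32841 RefSeq promoter sequences of that length, and its G+C content is 60.7%. The Sncb start holds 15, more than 65.4% of promoters, with a G+C content of 62.0%. Lrrc26 has 3 and Grin1os has 13, against a median of 7 over all promoters. GGGCGG occurs once at Grin1, on 2 places at Sncb, once at Lrrc26 and not in the Grin1os sequence, and 35.7% of all promoters hold it on either strand. CACGTG, the E-box, occurs on 2 places at Grin1 and in none of the other sequences shown, while 7.15% of all promoters hold it. TATAAA is in none of them, and 13.6% of all promoters hold it. Such matches describe the letters and do not show binding.

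Brain held far more reads than any other tissue in the Grin1 window. The window held 2153 reads in brain, against 487 in kidney, 419 in liver, 479 in spleen and 443 in lung. The libraries were scaled by the median of ratios over the 8222 regions in which each of them had 20 reads or more. These counts then became 2098 normalised reads in brain (95% exact Poisson interval 2011 to 2189), against 449 in kidney (410 to 491), 361 in liver (327 to 397), 719 in spleen (656 to 786) and 393 in lung (358 to 432). Brain lay 2.92-fold (95% exact conditional binomial interval 2.64 to 3.23) above spleen and 4.67-fold (4.23 to 5.17) above kidney. Kidney and lung overlapped, as did lung and liver. The second place of spleen rests on the scaling: its factor was 0.666 by medians of ratios and 1.06 by total reads. With scaling by total reads, brain was 5.12-fold (4.62 to 5.69) above lung, 5.80-fold (5.25 to 6.42) above spleen, 5.92-fold (5.36 to 6.55) above kidney and 7.47-fold (6.73 to 8.32) above liver.

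The Sncb window showed the same order between brain and the rest at a lower level. It held 750 reads in brain, against 185 in kidney, 162 in liver, 206 in spleen and 157 in lung. After scaling this was 731 normalised reads in brain (680 to 785), against 171 in kidney (147 to 197), 140 in liver (119 to 163), 309 in spleen (268 to 354) and 139 in lung (118 to 163). Brain was 2.36-fold (2.02 to 2.77) above spleen and 4.29-fold (3.64 to 5.06) above kidney. With scaling by total reads it was 4.70-fold (4.02 to 5.51) above spleen. Liver and lung were indistinguishable, and kidney overlapped both.

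Few places of the same size in the genome exceeded the Grin1 window in the values it was chosen by. Of 45946 adjoining windows of 55 kb with reads in every library, 13 held more brain reads and 6 had a higher ratio of brain to the next tissue; the medians over all windows were 159 brain reads and a ratio of 0.359. For Sncb, 562 of 63006 windows of 40 kb (0.892%) held more brain reads and 46 (0.0730%) had a higher ratio. By their shares of normalised reads over the 5 tissues, the windows most like Sncb were 61120001 to 61160000 of chromosome 18, 114000001 to 114040000 of chromosome 5 and 16720001 to 16760000 of chromosome 7. Those most like Grin1, at Euclidean distances of 0.0751 to 0.0889 in these shares, were 97350001 to 97405000 of chromosome 11, 27555001 to 27610000 of chromosome 17 and 6490001 to 6545000 of chromosome 19. In these, brain held 47.6%, 58.4% and 53.0% of normalised reads, and in the Grin1 window 52.2%.

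**Figure D1:**
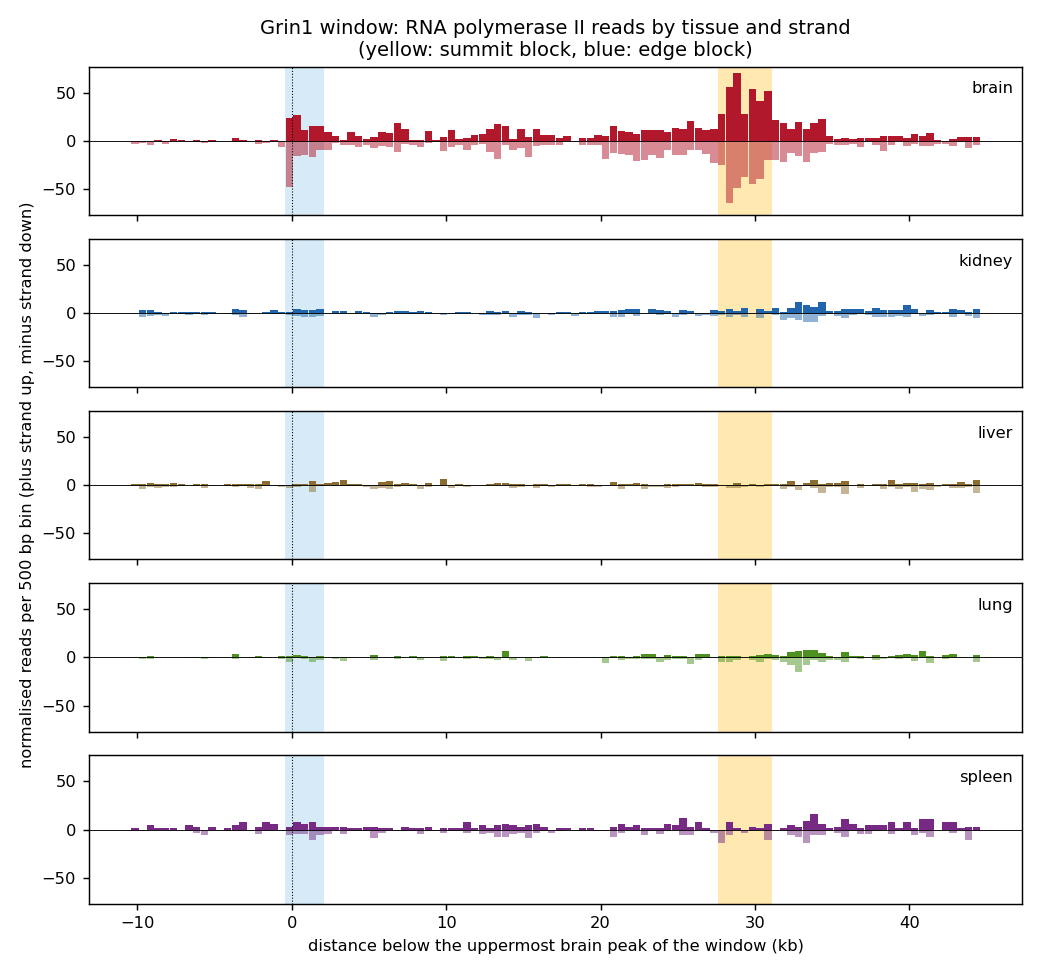
Normalised RNA polymerase II reads per 500 bp bin in the Grin1 window for the 5 libraries, plus strand upwards and minus strand downwards, against distance in kb below the uppermost brain peak, so that the minus-strand direction of Grin1 runs to the right. Brain reads start abruptly at the edge block (blue), continue at a lower level and are highest in the summit block (yellow), 27.6 to 31.1 kb away.

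Along the Grin1 window, brain reads formed a long domain with a sharp upper edge and its highest level at the opposite, low-coordinate end. The uppermost brain peak lay at 25174591. The 10 kb from 25175000 upwards held 44 brain reads, against 54 in kidney, 64 in liver, 52 in spleen and 33 in lung, so brain lay within the range of the other tissues there. Immediately below, from 25172500 to 25174999, lay the uppermost run of adjacent 500 bp bins with at least 20 brain reads each, called the edge block here. It held 201 brain reads, against 32 in kidney, 23 in liver, 39 in spleen and 25 in lung. Its density was 78.4 normalised reads per kb in brain, against 11.8 in kidney, 7.92 in liver, 23.4 in spleen and 8.88 in lung, and brain was 3.35-fold (2.37 to 4.85) above spleen. Within the brain library the edge block was 18.3 times as dense (13.1 to 25.9) as the sequence above it. The same ratio was 2.37 in kidney (1.48 to 3.74), 1.44 in liver (0.852 to 2.35), 3.0 in spleen (1.93 to 4.63) and 3.03 in lung (1.73 to 5.25), so a step at this edge was also seen in kidney, lung and spleen beyond counting error.

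The most reads lay in a run of 7 adjacent bins with at least 50 brain reads each, from 25143500 to 25146999, called the summit block here; both blocks were drawn after the profiles had been seen. It held 624 brain reads, 29.0% of the brain reads of the window in 6.36% of its length, against 41 in kidney, 17 in liver, 36 in spleen and 40 in lung. Its density was 174 normalised reads per kb in brain, against 10.8 in kidney, 4.18 in liver, 15.4 in spleen and 10.1 in lung. Brain was thus 11.3-fold (8.04 to 16.2) above spleen. The bin with most reads, from 25146000, held 123 brain reads, against 10 in kidney, 3 in liver, 9 in spleen and 7 in lung. The bin just below it in position held 122 in brain, and 4, 6, 5 and 1 in kidney, liver, lung and spleen. The bins from 25144500, 25144000 and 25143500 held 101, 83 and 73 brain reads, and at most 11 in any other tissue. With 73 reads in brain, against 3 to 7 elsewhere, the bin from 25174500 at the upper edge stood level with the last of these.

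The summit block was 2.22 times as dense (1.89 to 2.61) as the edge block in the brain library, a ratio within 1 library that no scaling between libraries enters. In the other tissues this ratio was 0.915 in kidney (0.562 to 1.5), 0.528 in liver (0.265 to 1.03), 0.659 in spleen (0.407 to 1.06) and 1.14 in lung (0.677 to 1.97), and each of these intervals included 1. Both blocks were drawn by brain reads, with the higher minimum for the summit block. The brain ratio thus lies above 1 in part by that choice, which its interval does not cover. No other tissue was used to draw the blocks. Between the blocks, over 25.5 kb, brain held 873 reads, 33.4 normalised reads per kb, against 5.03 in kidney, 5.30 in liver, 11.2 in spleen and 5.61 in lung. This brain mean covers uneven bins. Next to the summit block, up to 25154499, bins held 19 to 36 brain reads each. Those from 25154500 to 25158499 held 1 to 11, and the remaining ones 2 to 37. Brain was 2.97-fold (2.54 to 3.49) above spleen in this interior, and the summit block was 5.21 times (4.69 to 5.78) as dense as the interior. The summit block was also denser than the interior in kidney (2.15, 1.48 to 3.06) and in lung (1.81, 1.25 to 2.57), while the intervals in liver (0.789, 0.448 to 1.30) and spleen (1.37, 0.934 to 1.97) included 1. Reads fell evenly on the strands, with 49.1% of brain reads of the window on the plus strand (95% exact binomial interval 47.0% to 51.2%).

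**Figure D2:**
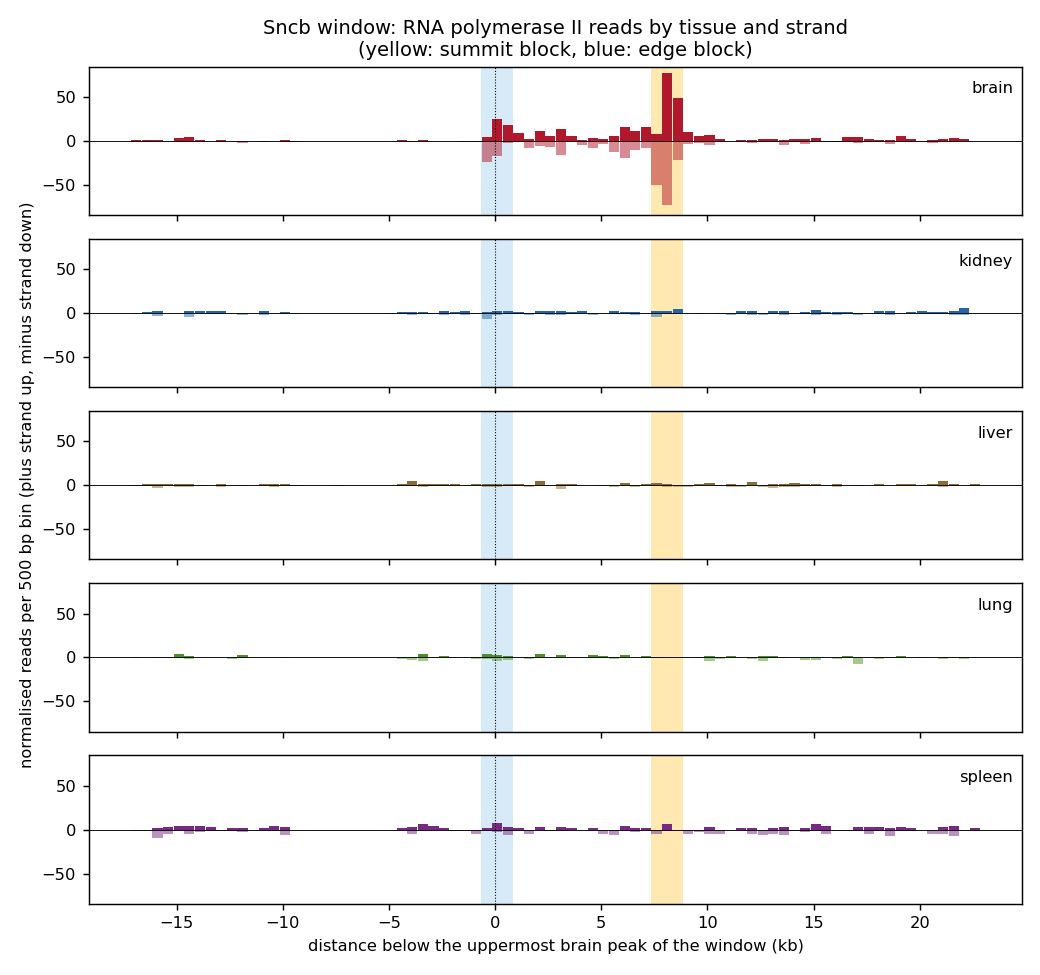
Normalised RNA polymerase II reads per 500 bp bin in the Sncb window for the 5 libraries, drawn as for Grin1. The brain domain is shorter, with its edge block (blue) at 0 and its summit block (yellow) 7.35 to 8.85 kb below the uppermost brain peak.

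The Sncb domain had the same layout in a shorter span. Its uppermost brain peak lay at 54867851, and its edge block, from 54867000 to 54868499, held 94 brain reads, against 15 in kidney, 9 in liver, 14 in spleen and 18 in lung. Brain was 4.36-fold (2.47 to 8.28) above spleen there. The 16.5 kb above it held 34 reads in brain, against 53 in kidney, 52 in liver, 67 in spleen and 39 in lung; the edge block was 30.4 times as dense (20.3 to 46.4) as this stretch in brain. A smaller step beyond counting error was seen in lung (5.08, 2.73 to 9.09) and kidney (3.11, 1.63 to 5.61). The ratio was 2.30 in spleen (1.19 to 4.13), and in liver the interval included 1 (1.90, 0.825 to 3.90). All 8 bins of this window without a read in any library lie in the stretch above the edge, which raises these ratios in every tissue. The ratios were not recomputed without those bins. With an interval from 1.19, the spleen ratio is therefore not read as a step. The summit block, from 54859000 to 54860499, held 286 brain reads, 38.1% of those of the window in 3.75% of its length, against 17 in kidney, 10 in liver, 9 in spleen and 3 in lung. Its density was 186 normalised reads per kb in brain, against 10.4 in kidney, 5.74 in liver, 9.0 in spleen and 1.78 in lung, a fold of 17.8 (10.9 to 31) over kidney. The bin from 54859500 held 154 brain reads, against 4 in kidney, 4 in liver, 5 in spleen and 1 in lung, and its neighbours from 54859000 and 54860000 held 72 and 60 in brain. In brain the summit block was 3.04 times as dense (2.40 to 3.88) as the edge block and 5.82 times (4.86 to 6.98) as dense as the interior. As at Grin1, the blocks were drawn by brain reads, so both brain ratios follow in part from that choice. In lung the summit block was less dense than the edge block (0.167, 0.0314 to 0.571), and in kidney (1.13), liver (1.11) and spleen (0.643) the intervals of this ratio included 1. Over the interior, the summit block was denser in kidney too (2.17, 1.14 to 3.99), and the ratio was 1.40 in liver, 1.5 in spleen and 0.406 in lung, each with an interval that included 1. The other bins among the 5 with most brain reads were that from 54867500, with 44, and that from 54861500, with 36 brain reads, against 1 to 7 elsewhere.

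The edge blocks, interiors and summit blocks of both windows had brain densities with overlapping intervals, unlike the parts outside them. The blocks of both windows were cut with the same minimum brain reads per bin, which brings their densities closer. A difference between the windows was not tested. The summit blocks had 174 normalised reads per kb at Grin1 (160 to 188) and 186 at Sncb (165 to 209), with overlapping intervals. So did the interiors, at 33.4 (31.2 to 35.7) and 31.9 (27.8 to 36.5), and the edge blocks, at 78.4 (67.9 to 90.0) and 61.1 (49.4 to 74.7). Below the summit block the densities were 29.7 (26.9 to 32.7) at Grin1 and 8.56 (7.12 to 10.2) at Sncb. At Sncb brain was 0.888-fold (0.671 to 1.18) of spleen in that part. Above the edge block they were 4.29 (3.12 to 5.76) at Grin1 and 2.01 (1.39 to 2.81) at Sncb, where empty bins lower the value.

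**Figure D3:**
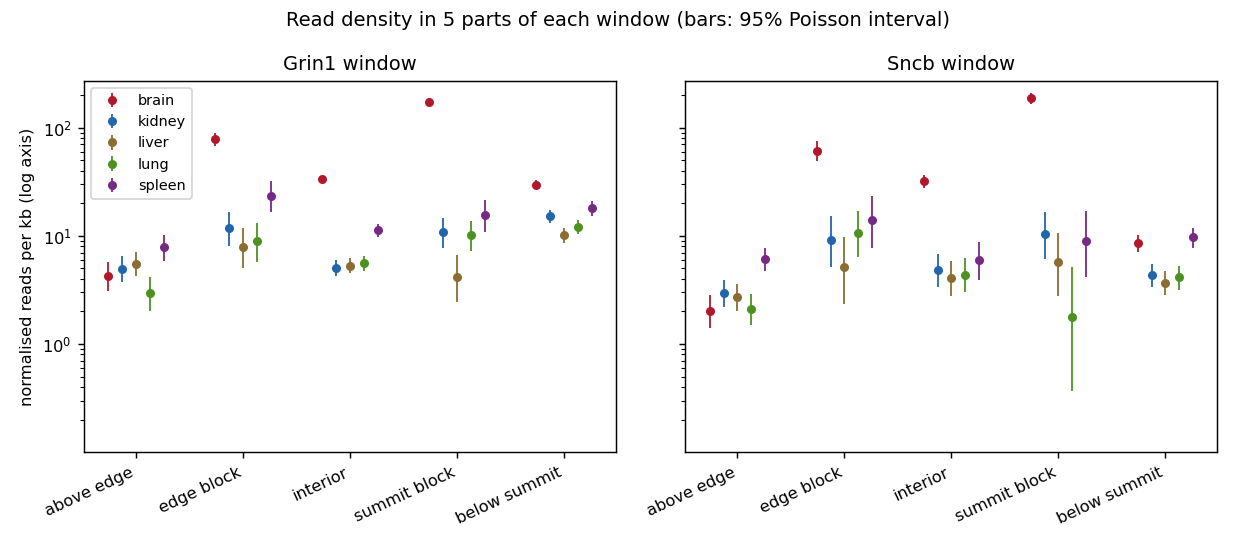
Normalised reads per kb (log axis) in 5 consecutive parts of each window for the 5 libraries, with 95% exact Poisson intervals. Brain is within or below the range of the other tissues above the edge, and stands above them in the edge block, the interior and the summit block of both windows. Below the summit block brain stands above the other tissues at Grin1 and lies within their range at Sncb.

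Most regions with a peak in brain alone lay in the interiors of the domains, which were also their longest parts. In both windows together, 38 of 45 merged regions had a peak in brain and in no other tissue, while 23.0% of all merged regions of the genome were of this kind; of 43 regions with a brain peak the same 38 were brain-only, against 51.0% over the genome. Of these 38 regions, 26 had their midpoint in the interiors, 4 in the edge blocks, 3 in the summit blocks and 5 elsewhere. The interiors spanned 25.5 kb at Grin1 and 6.5 kb at Sncb. The edge blocks spanned 2.5 and 1.5 kb, and the summit blocks 3.5 and 1.5 kb. These counts therefore do not show that brain-only regions avoid the edge or the summit. The Grin1 window had 39 brain peaks, against 4 in kidney, none in liver, 1 in spleen and 6 in lung, at a median spacing of 975 bp in brain, where the median over the genome was 2450 bp. The Sncb window had 9 in brain and a single one in another tissue, in lung at 54850401, outside the domain. The lists of peaks differed in length. Over the genome the spleen list held 31594 peaks and the brain list 91712, with liver (57816), lung (72971) and kidney (81375) between them. Median spacing over the genome was 15510 bp for spleen peaks, and 2250 to 3000 bp for those of kidney, liver and lung. Neither the peak counts nor the brain-only counts were adjusted for list length. The peak threshold is not given, and 16 of the 38 brain-only regions held under 20 brain reads. A peak in brain alone did not always mean a brain excess. The region from 25133141 held 9 brain and 14 spleen reads, a fold of 0.418 (0.159 to 1.04). Of the 22 brain-only regions with at least 20 brain reads, 18 had a fold interval above 1.

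A region or bin was called brain-restricted when it held at least 20 brain reads and its normalised brain count was 4 times or more that of each other library, counts under 3 being set to 3. In the Grin1 window 8 of 21 regions with at least 20 brain reads were brain-restricted, and in the Sncb window 4 of 4; over the genome 3.94% were. Among 500 bp bins with at least 20 brain reads, 18 of 39 were brain-restricted at Grin1 and 8 of 10 at Sncb, against 6.24% over the genome. All 12 restricted regions also had a peak in brain alone: 3 in the summit blocks, 2 in the edge blocks and 7 in the interiors. Of 22 brain-only regions with at least 20 brain reads, a kind that made up 14.3% of such regions over the genome, the other 10, all in the Grin1 window, were not restricted. The Grin1 count rests on spleen and its scaling: 14 regions were restricted there with spleen left out and 13 with scaling by total reads, while Sncb had 4 in both cases. The regions on either side of the threshold were that from 25152341 to 25152841, with 20 brain reads and 4.23-fold over kidney, and that from 25151741 to 25152241, with 35 brain reads and 3.79-fold over spleen.

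**Figure D4:**
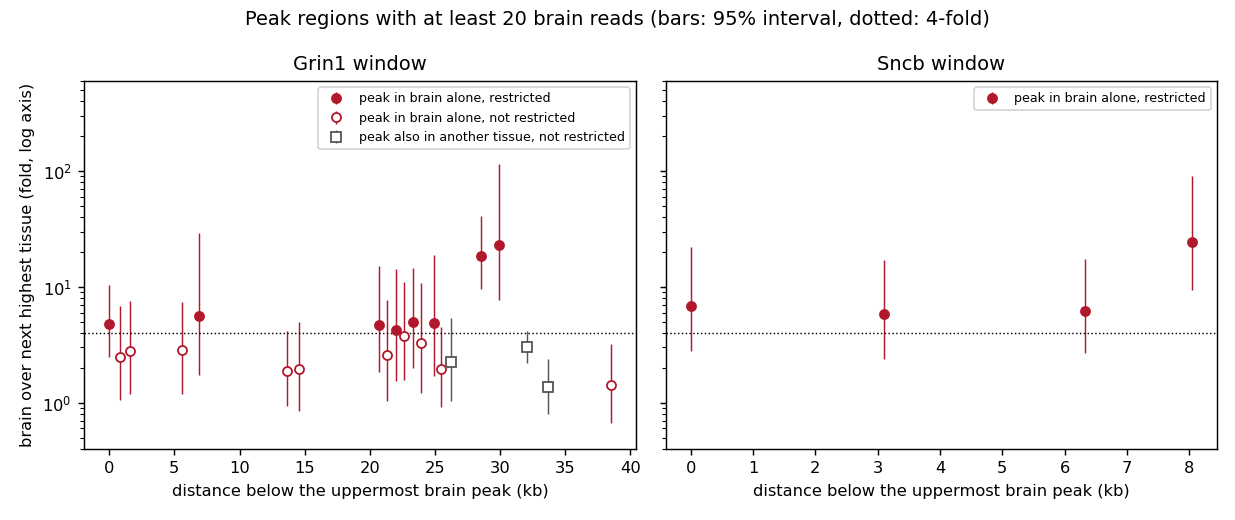
Fold of brain over the next highest tissue (log axis) for every merged peak region with at least 20 brain reads, against distance in kb below the uppermost brain peak, with 95% exact conditional binomial intervals; filled symbols are brain-restricted regions. The highest folds lie at 28.6 and 29.9 kb in the Grin1 window and at 8.05 kb in the Sncb window.

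In the Grin1 summit block 2 brain-only regions lay side by side. That from 25145791 to 25146291, 28.6 kb below the uppermost brain peak, held 152 brain reads, against 8 in kidney, 6 in liver, 5 in spleen and 9 in lung. That from 25144441 to 25144941, at 29.9 kb, held 107 in brain, against 1 in kidney, 2 in liver, 2 in spleen and 5 in lung. At the upper edge, the region from 25174341 to 25174841 held 74 brain reads, against 2 in kidney, 4 in liver, 10 in spleen and 6 in lung, 4.81-fold (2.47 to 10.4) over spleen. In the interior 12 brain-only regions had at least 20 brain reads; they held 20 to 36 brain reads each, and their folds ran from 1.89 to 5.63, so single interior regions carried few reads.

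In the Sncb window the 4 brain-only regions with at least 20 brain reads ran from the edge to the summit. The region from 54867601 to 54868101 held 53 brain reads, against 3 in kidney, 4 in liver, 5 in spleen and 6 in lung. At 3.10 kb, that from 54864501 to 54865001 held 31 in brain, against 5, 6, 3 and 3 in kidney, liver, lung and spleen. The next, from 54861051 to 54862001, held 57 in brain, against 5, 6, 3 and 6 in kidney, liver, lung and spleen. The summit region, from 54859551 to 54860051, held 150 in brain, against 6 in kidney, 4 in liver, 4 in spleen and 2 in lung. No tissue but brain passed 6 reads in any of them.

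Below the Grin1 summit block the brain excess was smaller. The region from 25140516 to 25141261 had peaks in brain, kidney, lung and spleen, and held 46 reads in brain, against 28 in kidney, 9 in liver, 22 in spleen and 21 in lung; brain was 1.36-fold (0.801 to 2.37) of spleen, an interval that includes 1. The region from 25141411 to 25143541, next to the summit block, had peaks in brain, kidney and lung and held 155 brain reads, against 53 in kidney, 23 in liver, 18 in spleen and 56 in lung; brain was 3.04-fold (2.22 to 4.2) above lung. The 2 bins of 500 bp that adjoin the summit block, from 25142500 and 25143000, held 42 brain reads each, against 2 to 9 and 0 to 8 elsewhere, and both were brain-restricted. The 5 bins below them were not: they held 25 to 36 brain reads, against 4 to 25 elsewhere. No region of either window had a peak in all 5 tissues.

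**Figure D5:**
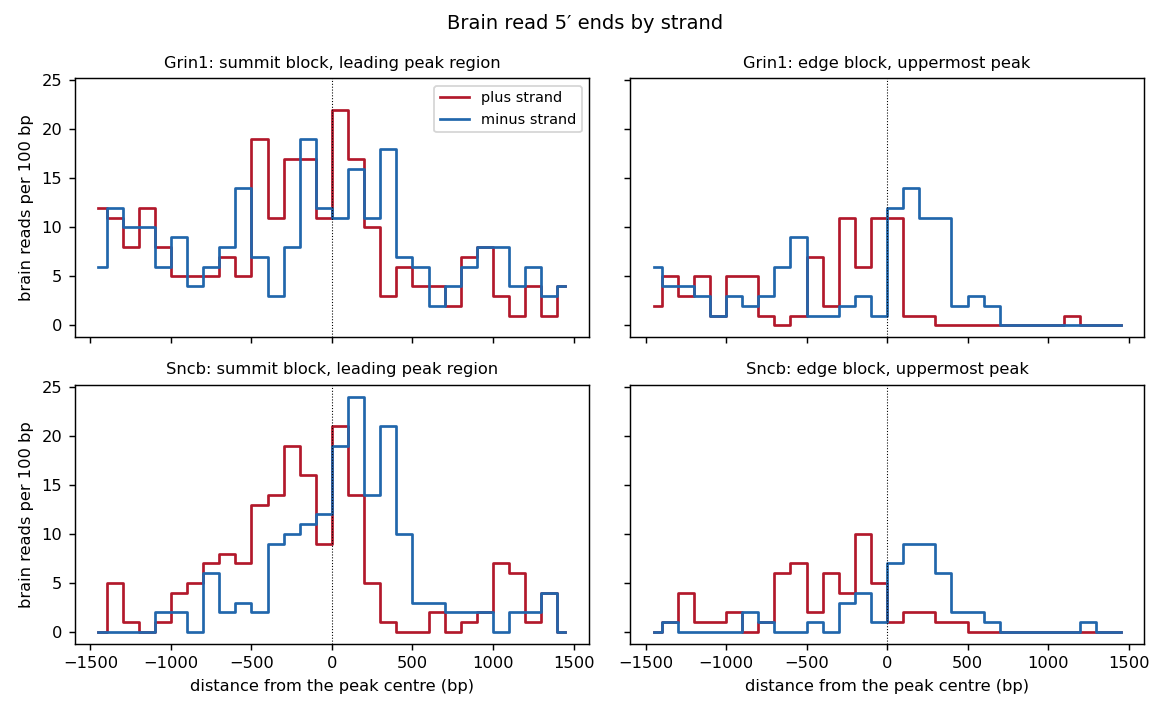
Brain reads per 100 bp on the plus and minus strands around the leading region of the summit block and the uppermost peak of each window, against distance in bp from the peak centre. At both upper edges plus-strand reads lie to the left and minus-strand reads to the right, with almost no reads beyond about 700 bp to the right; the Grin1 summit is wider and its strands overlap.

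The strands were offset at both upper edges and, within 500 bp of the midpoint, at the Sncb summit. A point-like source of immunoprecipitated fragments gives plus-strand reads on its left and minus-strand reads on its right, while the inside of a wide source gives little offset. Both edge regions lie where the brain domain stops, and whether their offsets come from a point-like source was not tested. Within 500 bp of the midpoint, the median minus-strand position lay 283 bp to the right of the median plus-strand position at the Grin1 edge region (interval 145 to 429 bp, from exact order-statistic intervals of both medians) and 298 bp at the Sncb edge region (115 to 433). The Sncb summit region had an offset of 286 bp (114 to 369), but within 300 bp of its midpoint the interval included 0 (103 bp, -49 to 266). At the leading Grin1 summit region the offset within 500 bp was 164 bp with an interval that includes 0 (-76.0 to 316), and at the second one 53.5 bp. Over the genome, 5720 brain peak regions with at least 50 brain reads had a median offset of 184 bp, with quartiles at 32.0 and 265 bp. The 3 larger offsets lay above the upper quartile and both Grin1 summit regions within the quartiles; the intervals of the 4 leading regions overlap each other. Offsets of this size were not particular to the edges: brain-only interior regions of Grin1 from 25153641 and 25160691, with 36 and 32 brain reads, had 324.5 and 327 bp.

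Which gene feature each place corresponds to was not settled, because no annotation in the coordinates of the reads was used here and positions were not converted between builds. Given the minus strand of both genes, the edge blocks lie at the side of the gene starts and the summit blocks at the side of the gene ends. Within GRCm38 the annotated start of Grin1os lies 27.9 kb and that of Lrrc26 29.3 kb below the start of Grin1, and the start of Gprin1 lies 16.7 kb below that of Sncb. In the coordinates of the reads the leading Grin1 summit regions lay 28.6 and 29.9 kb below the uppermost brain peak, and the Sncb summit region 8.05 kb. Whether the uppermost brain peak lies at the gene start was not settled, so these distances need not share an origin with those in GRCm38. Distances from the starts of Grin1 and Sncb to their own ends were not computed. In GRCm38 the end side of Grin1 therefore also carries starts of other genes, and reads there cannot be told apart between polymerase running off Grin1 and polymerase at Lrrc26 or Grin1os: immunoprecipitated fragments carry no strand of transcription.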

How the data were processed

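The members, blocks and lists were chosen with earlier results of these data known. Per the labels' protocols, freshly dissected tissue was crosslinked with 1% formaldehyde for 10 min and chromatin was fragmented to 0.2 to 0.8 kb. The authors deposited for each tissue a list of reads aligned with Bowtie, per the submitters' processing notes, and a list of peak positions; the settings of the aligner, the build and the peak caller were not given in the sources used. The deposited files hold positions, and no other unit was used. Lines of 34 to 36 bases were kept, leaving out 4 to 15 per library, and each read was counted once at its 5′ end. Scaling factors by medians of ratios were 1.03 (brain), 1.08 (kidney), 1.16 (liver), 1.13 (lung) and 0.666 (spleen), and by total reads 0.823, 1.10, 1.20, 0.867 and 1.06. Named places are the brain-only regions with at least 20 brain reads, any region with peaks in every tissue and the 5 bins per window with most brain reads; other regions and bins were named after their values were seen. The rule for restricted regions was checked with simulated counts. Intervals cover counting error only, because each tissue had 1 library. Reads carry no molecular identifiers, so repeated reads were counted as independent, and the intervals may be too narrow if such reads are copies. Reads repeating a position and strand made up 11.1% of brain reads at Grin1 and 9.87% at Sncb, against 7.12% over the brain library. Edge and summit blocks, and their alternatives, were added after the data were seen. Alternatives covered scaling, repeated reads, read position, background, read minimum, fold, bin and region size, and leaving out spleen. Software was SciPy 1.17.1, pandas 2.3.3, Matplotlib 3.10.9 and NumPy 2.4.6 under Python 3.11.15.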

Additional observations from a re-analysis of the deposited data

How the results depend on the processing

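Of 102 values recomputed under an alternative, 75 stayed within the interval of the value given or within 1.5 times the count, and 27 moved. The 27 that moved kept their direction, while among the 75 the strand offset of the leading Grin1 summit region changed sign. Scaling by total reads gave a brain excess of 5.12-fold for the Grin1 window and 4.70-fold for the Sncb window, 16.4-fold for the Grin1 summit block and 6.65-fold for the Grin1 edge block. Leaving out spleen gave 4.67-fold and 4.29-fold for the windows and 6.64-fold for the Grin1 edge block; with both changes the windows were at 5.12-fold and 5.03-fold, the Grin1 summit block at 16.4-fold and its edge block at 8.41-fold, and 20 regions were brain-restricted in place of 12. Subtracting the background of each library, taken as the 10th percentile of windows, gave 4.28-fold and 5.05-fold. Bins of 1000 bp gave 15 restricted bins in place of 26. Extending peaks by 500 bp gave 20 brain-only regions in place of 38, since neighbours merge, and asking for at least 20 brain reads gave 22. Counting each position and strand once moved none of these values. The strand offset of the Sncb summit region fell to 103 bp within 300 bp of its midpoint. That of the leading Grin1 summit region fell from 164 bp within 500 bp (interval -76 to 316) to -30 bp within 300 bp. The latter value lies within that wide interval, so the sign of this offset was not determined. No paired analysis was possible because each tissue had 1 library. At this depth an interior region holds few reads, and differences between single interior regions were not tested.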

Other observations

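Above the Sncb edge, 7 of the 8 bins between 54873000 and 54877000 held no read in any of the 5 libraries. In all, 8 of the 80 bins of the Sncb window and 1 of the 110 bins of the Grin1 window were empty in every library. Such stretches give no information on polymerase, and they lower the mean density above the Sncb edge in every tissue alike. They thereby raise the ratio of the Sncb edge block to the stretch above it.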
